A study of Homo sapiens with 6 samples.

Results

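The genes described here are the receptors, ligand and first intracellular steps of death by FAS and TRAIL: FAS, the TRAIL receptor genes TNFRSF10A, TNFRSF10B, TNFRSF10C and TNFRSF10D, the TRAIL gene TNFSF10, the initiator caspase genes CASP8 and CASP10, CFLAR and BID. They are 10 of 19775 genes that have at least 1 probe set to themselves on these arrays, and every probe set annotated to exactly 1 of them was taken, 45 of 54613 in all. A probe set is a group of short probes read together as 1 value. Another 2 probe sets, shared by TNFRSF10C and LOC254896, were left out by this rule.

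Total RNA of 6 samples was hybridised to Affymetrix HG-U133 Plus arrays, 3 of the S116D line and 3 of the S116A line. Each line is SKOV3.ip1, a human ovarian carcinoma cell line, stably transfected with a vector for the protein PEA-15. In the S116D line PEA-15 is phosphomimetic, with aspartic acid in place of Ser116 by the titles, of Ser104 and Ser116 by the sample characteristics, and of Ser16 by the treatment text. In the S116A line it is nonphosphorylatable, with alanine in place of Ser116. The labels do not say whether a line is a clone or a pool, nor whether the 3 samples of a line came from separate cultures, so the spread between them may be technical. No untransfected or empty-vector cells were analysed here, and all differences are S116D minus S116A on the log2 scale.

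FAS and the TRAIL receptors TNFRSF10A and TNFRSF10B are cell surface proteins with an intracellular death domain. When ligand binds, the adaptor FADD joins them and recruits procaspase-8 and procaspase-10 through death effector domains, and the caspases activate each other there. CFLAR, also known as FLIP, resembles caspase-8 without its protease activity and competes for places in this complex, while PEA-15 itself carries a death effector domain and can bind FADD and caspase-8. Active caspase-8 cuts BID, whose fragment carries the signal to the mitochondria. TNFRSF10C and TNFRSF10D bind TRAIL without a working death domain and are called decoy receptors.

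The promoters of 3 genes are shown. FAS and BID had several probe sets that differed between the lines. All 3 of TNFSF10 did so once 2 sets of arrays, described below, were taken as a block. The promoter of TNFRSF10D, which fell most and had both of its probe sets called under that block, is not shown. Those of CASP8, CFLAR and TNFRSF10B, each with 1 probe set called under that block, are not shown either. The choice of promoters therefore did not follow from the calls alone. Each run is the 250 bases before the first start listed by RefSeq (GRCh38.p14), 5′ to 3′ on the gene's own strand. FAS lies on the plus strand at chr10:88990548-88990797, TNFSF10 on the minus strand at chr3:172523431-172523680 and BID on the minus strand at chr22:17774470-17774719. Capitals mark matches on either strand to GGGCGG (the GC box) or TGANTCA (a loose form of the AP-1 site, with any base at N). They likewise mark matches to GAAA, NN and GAAA in a row (the core of the interferon-stimulated response element). The matches do not overlap here.
FAS: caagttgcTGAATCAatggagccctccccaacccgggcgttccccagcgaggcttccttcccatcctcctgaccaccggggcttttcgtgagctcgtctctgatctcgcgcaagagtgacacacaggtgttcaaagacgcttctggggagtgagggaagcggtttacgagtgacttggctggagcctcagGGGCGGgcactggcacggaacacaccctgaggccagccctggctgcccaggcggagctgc
TNFSF10: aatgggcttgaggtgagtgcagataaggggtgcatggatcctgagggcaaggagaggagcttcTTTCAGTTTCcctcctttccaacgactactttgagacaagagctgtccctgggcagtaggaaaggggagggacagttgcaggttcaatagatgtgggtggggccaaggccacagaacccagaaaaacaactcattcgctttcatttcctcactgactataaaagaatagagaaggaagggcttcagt
BID: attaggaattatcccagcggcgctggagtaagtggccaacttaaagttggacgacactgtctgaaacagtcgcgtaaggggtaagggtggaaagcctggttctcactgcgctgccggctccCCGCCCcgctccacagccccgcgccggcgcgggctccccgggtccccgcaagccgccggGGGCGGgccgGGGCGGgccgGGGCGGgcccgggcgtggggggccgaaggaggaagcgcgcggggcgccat
BID had 4 matches to the GC box and FAS had 1, and 42.3% of 27305 promoters of this length held at least 1. How many promoters held 4 was not counted. The BID run was 72.0% G or C and the FAS run 62.8%, against a median of 58.0% over all promoters. FAS had 1 match to TGANTCA, with A as the middle base, and 6.6% of promoters held a match with any middle base. TNFSF10 had 1 match to the interferon element, found in 3.1%. These matches describe the letters in the window and nothing about binding.

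The arrays were closely scaled, with medians of 7.86 to 7.89, and arrays of 1 line correlated at r of 0.995 to 0.998 across probe sets. A second principal component, with 20.3% of the variance, separated S116D 1, S116A 1 and S116A 2 from S116D 2, S116D 3 and S116A 3. No label names these sets, so differences were also fitted with the set as a block and taken within each set, a choice made after seeing the data. Since the sets were defined from these same arrays, every p-value and call under this block, for any gene, is a description. The brighter PEA15 probe set read 12.47 to 12.69 in S116D and 12.50 to 12.70 in S116A, with a difference of -0.061 (limma adjusted p = 0.82). The second, 200787_s_at, read 10.74 to 10.87 in S116D and 10.96 to 11.03 in S116A, without overlap, a difference of -0.19 (95% interval -0.36 to -0.017, limma adjusted p = 0.20). Whether either reads the vector's transcript is not known. All 5 markers of carcinoma epithelium (KRT7, KRT8, KRT18, KRT19 and EPCAM) were bright in both lines and fell in S116D, with a log2 summed signal of 14.7 to 15.0 in S116D and 15.65 to 15.98 in S116A. Their part in the results below was not tested. Of 5 ovarian carcinoma markers limma called 0, and 0 had an unadjusted p under 0.05: PAX8 and ERBB2 were bright in both lines, while MUC16 and MSLN lay below the median signal. With the set as a block ERBB2 was called, at 0.66 (limma adjusted p = 0.00058). Markers of leukocytes (3), fibroblasts (5) and endothelium (3) gave 0 limma calls, and LUM alone had an unadjusted p under 0.05, with summed signals of 9.78 to 9.98 in S116D and 9.80 to 9.90 in S116A for leukocytes. The sums were 11.1 to 11.2 in both lines for fibroblasts, and for endothelium 9.95 to 10.1 in S116D and 10.0 to 10.1 in S116A.

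FAS and the decoy receptor gene TNFRSF10D fell in the S116D line and BID rose, while no probe set of the other 7 genes passed the test. A probe set is said to have risen, fallen or been called when its limma p, adjusted over all 54613 probe sets by Benjamini-Hochberg, was under 0.05. By this rule 7 of the 45 probe sets were called (15.6%), where 8.55% of all probe sets were. Of the 7, 3 were higher in S116D, all of BID, against 4.36% of all probe sets, and 4 were lower, 3 of FAS and 1 of TNFRSF10D, against 4.19%. The lines did not overlap on 14 of the 45, or 31.1%, where 24% of all probe sets did not overlap. The median difference of the 45 was 0.052 and their median absolute difference 0.15, against 0.0030 and 0.074 over all probe sets. The calls rest on limma's pooling of the spread across probe sets. With ordinary t statistics none of the 45 was called (adjusted p of 0.053 to 0.19 for the 7), where 1.88% of all probe sets were. By that test 9 of the 45 had an unadjusted p under 0.05, and the share over all probe sets was not counted. With limma 15 of the 45 had an unadjusted p under 0.05, against 19.7% of all probe sets.

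**Figure D1:**
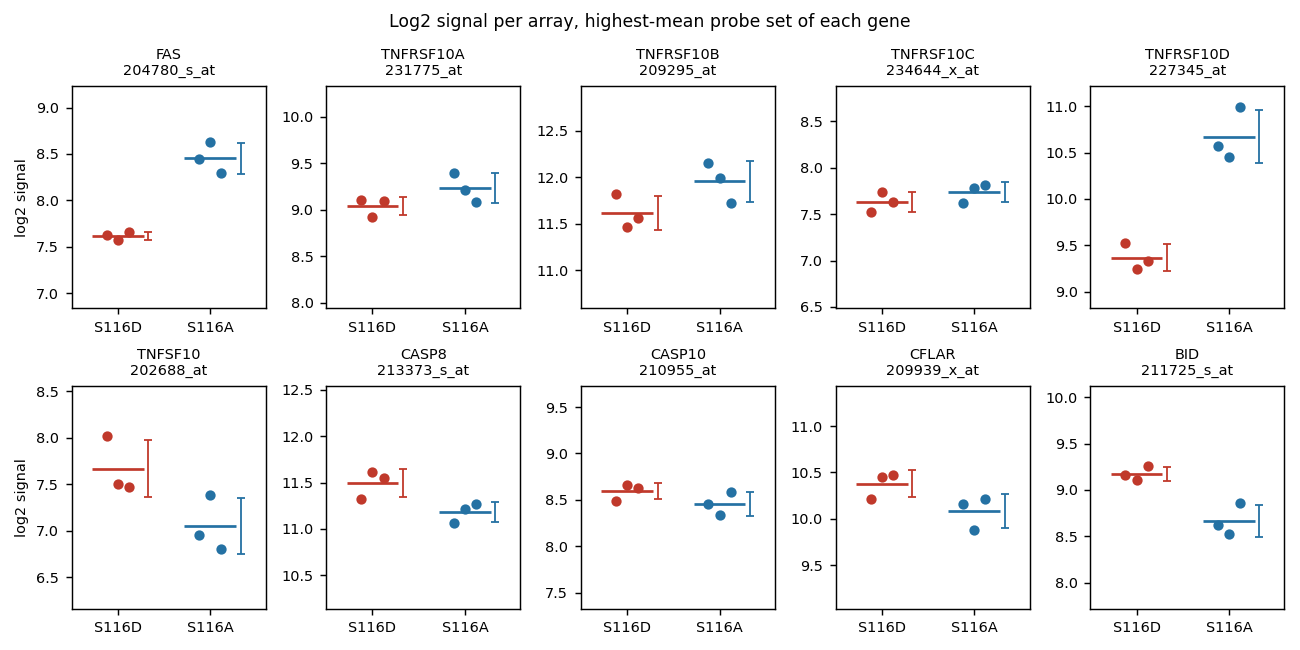
Log2 signal of every array for the highest-mean probe set of each of the 10 genes, S116D left of S116A, with the mean as a horizontal line and the SD over 3 arrays as a vertical bar beside the points; all panels have the same height in log2 units but start at different levels. FAS and TNFRSF10D lie lower in all S116D arrays than in any S116A array, BID lies higher, and TNFSF10 and CASP8 also do not overlap.

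FAS, the receptor for FAS ligand, was lower in S116D on all of its probe sets, 3 of which were called. The brightest, 204780_s_at, read 7.63, 7.57 and 7.66 in the S116D arrays, against 8.44, 8.62 and 8.29 in the S116A arrays. The S116D arrays lay close together and all below the lowest S116A array. The difference of -0.84 ± 0.091 (SE) was a 1.79-fold fall (limma adjusted p = 0.0011), and it was called without each array in turn, at -0.92 to -0.75.

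The other FAS probe sets gave smaller differences. On 204781_s_at the S116D arrays read 7.65, 7.90 and 7.65 and the S116A arrays 8.12, 8.06 and 8.02, a difference of -0.34 (limma adjusted p = 0.046). Again no array of a line reached into the other line. This call ended without any 1 of 5 arrays, all but S116D 2, at limma adjusted p of 0.065 to 0.17. The dim probe set 215719_x_at, with every signal under the arrays' lower quartiles of 6.62 to 6.65, read 5.51, 5.60 and 5.69 in S116D and 5.92, 6.01 and 5.91 in S116A. It fell by 0.35 (limma adjusted p = 0.0099) and was called without each array in turn. Its name ends in _x_at, which Affymetrix gives to sets whose probes may also read other transcripts.

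The remaining FAS probe sets were not called. Another dim probe set, 216252_x_at, differed by -0.30 (95% interval -0.54 to -0.058, limma adjusted p = 0.14), with the lines overlapping. It was called in 1 of 13 alternatives, over which its adjusted p ran from 0.0097 to 0.40. On 233820_at the difference was -0.071 (95% interval -0.25 to 0.10), and S116D 1, 2 and 3 at 7.58, 7.57 and 7.55 were next to S116A 2 and 3 at 7.57 and 7.56. The gap between 204780_s_at and 233820_at within an array was -0.0059 to 0.10 in S116D, against 0.65 to 1.05 in S116A. So the probe sets of FAS did not move by the same amount, and since probe positions were not used here, it is not known which transcripts each of them reads.

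**Figure D2:**
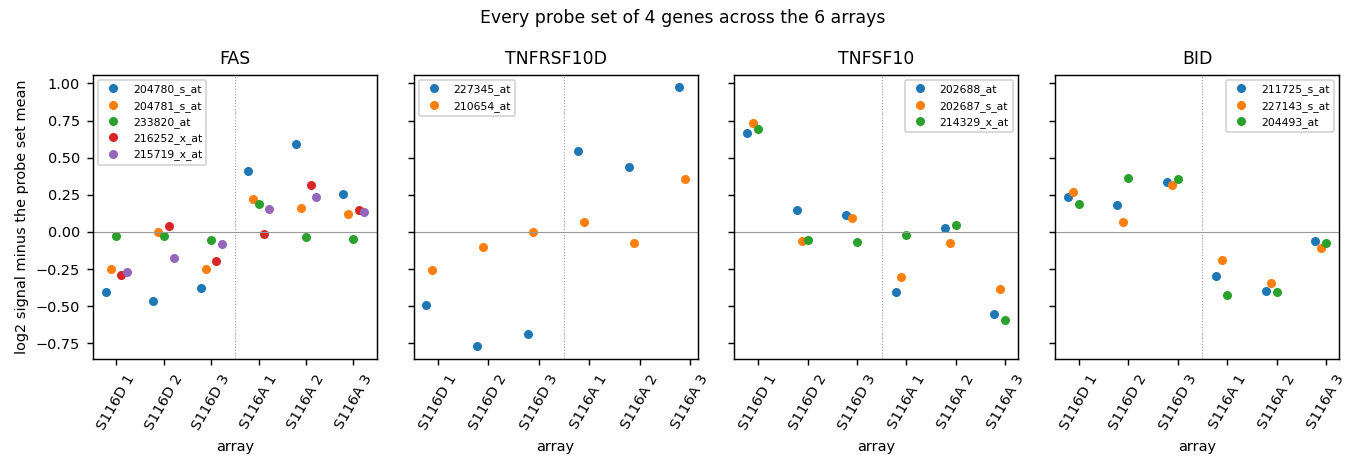
Log2 signal minus the probe set's own mean over 6 arrays, for every probe set of FAS, TNFRSF10D, TNFSF10 and BID, with S116D arrays left of the dotted line and S116A arrays right of it. The 3 BID probe sets move together, TNFSF10 is highest in S116D 1 on all of its probe sets, and 1 FAS probe set stays near 0 in 5 of the 6 arrays.

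TNFRSF10D, which encodes a decoy receptor for TRAIL, fell most among the 45 probe sets. On 227345_at the S116D arrays read 9.53, 9.25 and 9.33, against 10.57, 10.45 and 10.99 in S116A. The lowest S116A array was far above the highest S116D array, while S116A 3 stood above the other arrays of its line. The difference of -1.30 ± 0.14 (SE) was a 2.47-fold fall (limma adjusted p = 0.0012), and it was called without each array in turn, at -1.41 to -1.14. It was -0.98 between S116D 1 and the S116A arrays of its set and -1.70 between the arrays of the other set.

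The second TNFRSF10D probe set, 210654_at, was dim and read 6.81, 6.96 and 7.06 in S116D and 7.13, 6.99 and 7.42 in S116A. Its lines overlapped and its difference of -0.23 (95% interval -0.49 to 0.025, limma adjusted p = 0.31) was not called. Blocked by set it was -0.33 (95% interval -0.50 to -0.16, limma adjusted p = 0.017). Over the 13 alternatives its adjusted p ran from 0.017 to 0.59.

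None of the 11 probe sets of the other TRAIL receptor genes was called. In RefSeq the 4 receptor genes are neighbours on chromosome 8, with no other protein-coding gene between TNFRSF10B, TNFRSF10C, TNFRSF10D and TNFRSF10A in that order. TNFRSF10B, which encodes a death-domain receptor for TRAIL, read 11.82, 11.47 and 11.56 in S116D and 12.16, 11.99 and 11.72 in S116A on its brightest probe set, 209295_at. S116D 1 lay above S116A 3, so the lines overlapped, and the difference of -0.34 (95% interval -0.64 to -0.039) had a limma adjusted p of 0.19. With the sets as a block it was -0.23 (95% interval -0.38 to -0.079, limma adjusted p = 0.048). It was called in 3 of 15 alternatives, over which the adjusted p ran from 0.030 to 0.49.

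The remaining probe sets of TNFRSF10B differed by 0.075, -0.043 and -0.10. TNFRSF10A, the gene of the other death-domain receptor for TRAIL, differed by -0.19 on its brightest probe set, 231775_at (95% interval -0.42 to 0.041), and by -0.025 and -0.081 on the others. The decoy receptor gene TNFRSF10C differed by -0.10 to 0.067 on its 4 probe sets, all of which lay below the median signal of 7.89. The 2 probe sets it shares with LOC254896 differed by 0.074 and 0.062, and neither was called. Every 95% interval of the probe sets annotated to TNFRSF10A or TNFRSF10C alone lay between -0.42 and 0.31. Each such interval bounds the difference of its probe set and not that of the gene. For TNFRSF10D, the interval of 210654_at, -0.49 to 0.025, also left out the -1.30 of 227345_at.

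TNFSF10 encodes TRAIL, the ligand of these receptors. Its brightest probe set, 202688_at, read 8.02, 7.50 and 7.47 in S116D, against 6.96, 7.39 and 6.81 in S116A. All S116D arrays were above all S116A arrays, with S116D 1 highest, but the gap between S116D 3 and S116A 2 was small. The difference of 0.62 ± 0.18 (SE), or 1.53-fold, had a limma adjusted p of 0.078 and was not called.

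On the other TNFSF10 probe sets S116D 1 also read highest. On 202687_s_at the S116D arrays read 7.58, 6.79 and 6.94 and the S116A arrays 6.55, 6.77 and 6.47, a difference of 0.51 (95% interval 0.083 to 0.93, limma adjusted p = 0.16). On 214329_x_at they read 7.01, 6.25 and 6.25 in S116D and 6.29, 6.36 and 5.72 in S116A, a difference of 0.38 (95% interval -0.14 to 0.90, limma adjusted p = 0.45). All 3 probe sets lay below the median signal, and the probes of 214329_x_at, by its ending, may also read other transcripts.

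Within each line, on all 3 probe sets, the arrays of the set of S116D 1 read higher than those of the other set separated by the second component. Within the set of S116D 1, S116A 1 and S116A 2 the TNFSF10 probe sets differed by 0.85, 0.92 and 0.68, and within the other set by 0.68, 0.40 and 0.53. With the set as a block all 3 were called, at 0.77, 0.66 and 0.61 with limma adjusted p of 0.0013, 0.0045 and 0.00022. That fit called 14.8% of all probe sets and 14 of the 45. Over the 14 or 13 alternatives the adjusted p of 202688_at ran from 0.0013 to 0.34, that of 202687_s_at from 0.0045 to 0.45 and that of 214329_x_at from 0.00022 to 0.77. Without S116A 2, the highest array of its line, 202688_at differed by 0.79 and was called (limma adjusted p = 0.043). In all, 202688_at was called in 3 of 14 alternatives. Since the block was defined from these arrays, its p-values are a description.

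**Figure D3:**
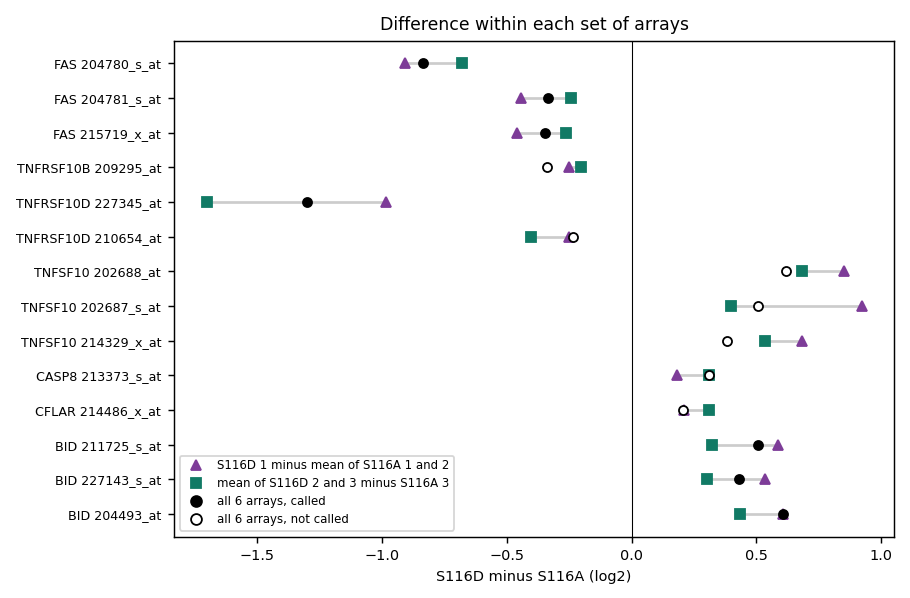
S116D minus S116A on the log2 scale for the 14 probe sets called with all 6 arrays or with the set as a block; triangles show S116D 1 minus the mean of S116A 1 and 2, squares the mean of S116D 2 and 3 minus S116A 3, and circles all 6 arrays, filled where called. Each probe set has the same sign in both sets, which choosing probe sets by these calls favours. The sets differ most for TNFRSF10D 227345_at, at -0.98 and -1.70.

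CASP8, CASP10 and CFLAR, whose products meet at the receptor, gave no call on 21 probe sets. They are neighbours on chromosome 2 in the order CFLAR, CASP10, CASP8. CASP8, the gene of the initiator caspase that PEA-15 can bind, read 11.32, 11.61 and 11.55 in S116D, against 11.07, 11.22 and 11.27 in S116A, on 213373_s_at. The lines did not overlap, yet S116D 1 and S116A 3 were close, and the difference of 0.31 (95% interval 0.082 to 0.54) had a limma adjusted p of 0.11. It was 0.40 and called without S116D 1 (limma adjusted p = 0.037), and 0.25 and called with the set as a block (0.040). With array weights it was 0.37 and called (0.029), as it was with the replicate block, at 0.31 (0.021). The range over 15 alternatives was 0.021 to 0.35.

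The other CASP8 probe sets were dimmer and differed by 0.15 (207686_s_at, 95% interval -0.088 to 0.38) and -0.017 (1553306_at, 95% interval -0.17 to 0.13). The gap between 213373_s_at and 1553306_at was 3.57 to 3.75 in S116D and 3.19 to 3.43 in S116A, so the probe sets did not move by the same amount. CASP10, the other initiator caspase gene, differed by 0.0019 to 0.14 on its 4 probe sets, with 95% intervals from -0.17 to 0.34 in all.

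CFLAR had 14 probe sets, of which 11 differed upwards and 3 downwards, from -0.20 to 0.32 with a median of 0.092. Its brightest, 209939_x_at, read 10.21, 10.45 and 10.47 in S116D and 10.16, 9.88 and 10.22 in S116A. S116D 1 fell within the range of S116A, and the difference of 0.29 (95% interval 0.029 to 0.55) had a limma adjusted p of 0.19. The lines did not overlap on 214486_x_at, at 8.90 to 9.04 in S116D and 8.61 to 8.89 in S116A, nor on 237367_x_at, at 8.60 to 8.67 in S116D and 8.82 to 8.87 in S116A. These moved in opposite directions, by 0.21 (limma adjusted p = 0.25) and -0.20 (0.13). With the set as a block they differed by 0.26 and -0.21, and the first was called (limma adjusted p of 0.039 and 0.059). The dim probe set 239629_at differed by 0.32 (95% interval -0.072 to 0.71) and was called in 2 of 13 alternatives. Of these, 1 was without S116A 2, at 0.53 (limma adjusted p = 0.041, range over the alternatives 0.041 to 0.76). Many of these probe sets have names ending in _x_at, which Affymetrix gives to sets whose probes may also read other transcripts.

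BID, which caspase-8 cuts to reach the mitochondria, rose on all 3 of its probe sets. On 211725_s_at the S116D arrays read 9.16, 9.10 and 9.26, against 8.62, 8.52 and 8.86 in the S116A arrays. No S116A array reached the lowest S116D array, though S116A 3 came nearest. The difference was 0.51 ± 0.10 (SE), or 1.42-fold (limma adjusted p = 0.016).

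The other probe sets of BID gave like values. On 227143_s_at the S116D arrays read 8.96, 8.76 and 9.01 and the S116A arrays 8.51, 8.35 and 8.58, a difference of 0.43 (limma adjusted p = 0.028). On 204493_at they read 8.22, 8.39 and 8.38 in S116D and 7.60, 7.62 and 7.95 in S116A, a difference of 0.60 (limma adjusted p = 0.0096). On both, every S116D array was above every S116A array. Within an array the gap between 211725_s_at and 227143_s_at was 0.20 to 0.35 in S116D and 0.12 to 0.27 in S116A, so these probe sets moved nearly together.

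The BID calls differed in how far they rested on single arrays. That of 204493_at was kept without each array in turn, at 0.54 to 0.72. That of 211725_s_at ended without S116D 3, S116A 1 or S116A 2, at 0.46, 0.48 and 0.43 (limma adjusted p of 0.072, 0.070 and 0.063). That of 227143_s_at ended without S116D 1, S116D 3, S116A 1 or S116A 2, at 0.36 to 0.44 (limma adjusted p of 0.062 to 0.11). Within the sets of arrays the 3 probe sets differed by 0.58, 0.53 and 0.61 in the first and by 0.32, 0.30 and 0.43 in the second.

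**Figure D4:**
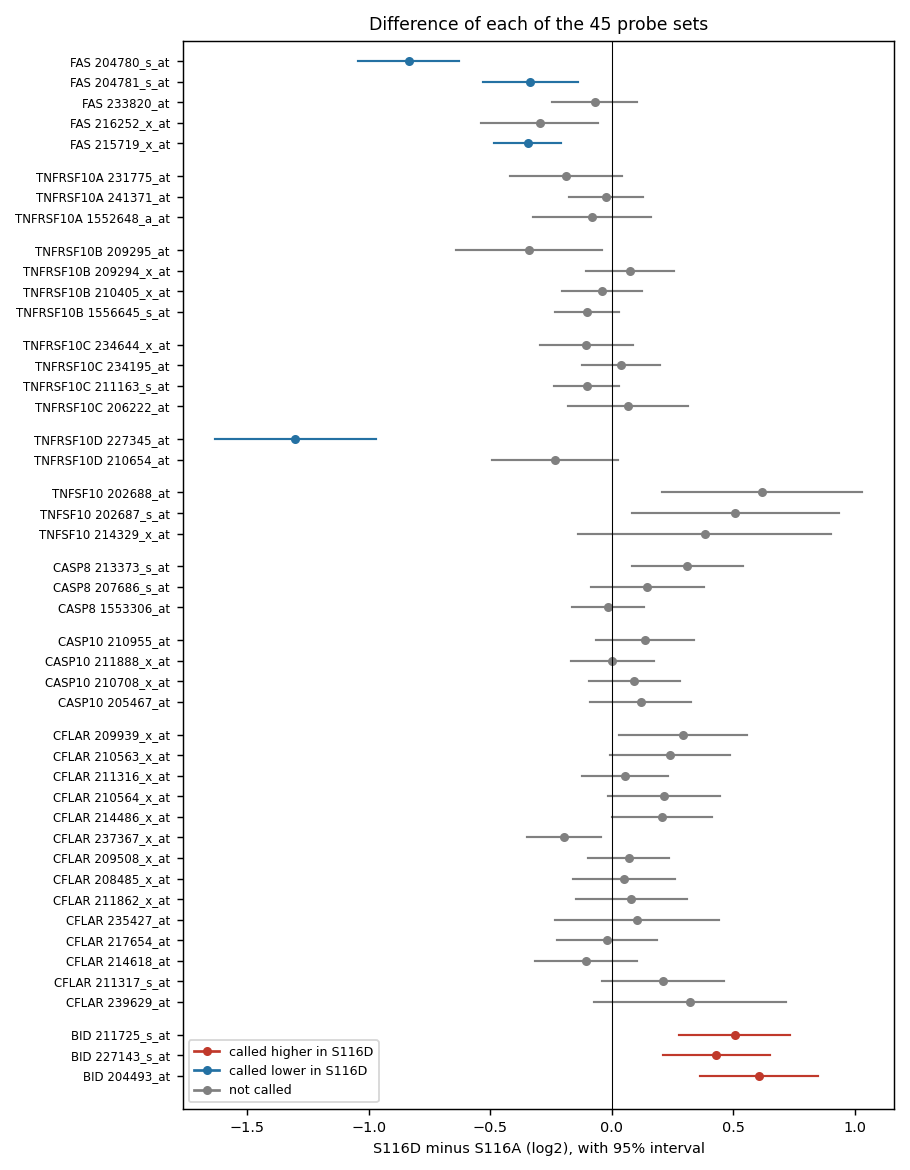
S116D minus S116A on the log2 scale for all 45 probe sets, grouped by gene, with limma's 95% interval as a horizontal line, in red where called higher, blue where called lower and grey where not called. The called points are 3 of FAS and 1 of TNFRSF10D to the left of 0 and 3 of BID to the right, and 30 of the 38 other intervals span 0.

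The size of change that these arrays leave possible for each probe set can be read from its interval. Of the 38 probe sets that were not called, 37 had 95% intervals within 1 log2 unit of 0 on both sides, and 202688_at of TNFSF10, at 0.20 to 1.03, was the exception. Taken gene by gene on the highest-mean probe set, 3 of the 10 genes were called, where 11% of all genes were. BID was higher, against 6.13% of all genes, and FAS and TNFRSF10D were lower, against 4.82%. Among the 45 probe sets 19 lay below the median signal, and no detection calls were used here, so for these a low level and a background reading cannot be told apart.

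The neighbouring steps of the pathway were described with lists of genes, each read on its highest-mean probe set. Beside their counts stand the shares over all genes, of which 11% were called, 6.13% higher and 4.82% lower. Of 17 listed adaptors and regulators of the receptor complexes 14 were measured here, of which 3 fell and 0 rose, with a median difference of -0.036, against 0.0064 over all genes. MLKL, which carries out necroptosis, read 9.40, 9.65 and 9.49 in S116D and 9.94, 10.06 and 9.84 in S116A, a difference of -0.43 (limma adjusted p = 0.028). CYLD, a deubiquitinase, differed by -0.35 (0.032), with 2 of its 7 probe sets called. DEDD2, a protein with a death effector domain, differed by -0.40 (0.033). None of the 14 was called without S116D 3, S116A 1 or S116A 2. In these settings 4, 5 and 5 of them had an unadjusted p under 0.05, and the share over all genes was not counted. With array weights or either block 2 were higher and 3 lower. The 2 were FADD, the adaptor of the receptors, at 0.31 (limma adjusted p = 0.080, and 0.28 with 0.042 under the set block), and BIRC2, an inhibitor of apoptosis protein, at 0.24 (0.096, and 0.19 with 0.034).

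Of 12 listed other death-domain receptors, soluble decoys and ligands 11 were measured here, of which 1 fell and 0 rose, with a median difference of -0.064. TNFRSF21, the death receptor also called DR6, read 11.65, 11.76 and 11.67 in S116D, against 12.71, 12.49 and 12.48 in S116A. The lines lay far apart, and the difference of -0.87 ± 0.084 (SE), a 1.83-fold fall (limma adjusted p = 0.00059), was close to that of FAS on 204780_s_at. Both of its probe sets were called. TNFRSF1A, a receptor for TNF, differed by -0.43 without overlap (limma adjusted p = 0.058). It made a second lower call with array weights, with either block, with dim probe sets left out and without S116A 3, at -0.35 (0.012) under the set block and -0.55 (0.014) without S116A 3.

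Of 15 listed executioner caspases and genes of the mitochondrial arm 13 were measured here. Limma called 0 of them on the highest-mean probe set, and their median difference was -0.021. An unadjusted limma p under 0.05 was found for 2 of the 13, against 4667 of all 19775 genes. The 2 were BAK1, which forms pores in the outer mitochondrial membrane, at -0.35 (limma adjusted p = 0.071), and DFFA, the inhibitor of the apoptotic nuclease, at -0.29 (0.13). By ordinary t statistics 0 were called as well, while with array weights or with either block both were. Of the 3 probe sets of CYCS, the gene of cytochrome c, 1 dim one was called, at 0.38 (limma adjusted p = 0.010), against -0.080 on the brightest. Of 14 listed further BCL2 family genes 13 were measured here, of which 1 rose and 0 fell, with a median difference of -0.085. This was BMF, which like BID has a BH3 domain, at 8.97, 8.85 and 8.79 in S116D and 8.40, 8.42 and 8.26 in S116A. All S116D arrays were above all S116A arrays, and the difference was 0.51 ± 0.082 (SE), or 1.42-fold (limma adjusted p = 0.0064). On dimmer probe sets BCL2L11, which also has a BH3 domain, was called higher on 2 of 7, at 0.39 and 0.68 (limma adjusted p of 0.038 and 0.049). PMAIP1, another such gene, was called lower on 1 of 2, at -0.61 (0.020). With the set as a block PMAIP1 and BNIP3L were called lower on their brightest probe sets, at -0.53 and -0.41 (limma adjusted p of 0.0037 and 0.022), against -0.44 and -0.51 (0.088 and 0.070) without it. The list had 2 lower calls with array weights, 3 with the replicate block and, without S116D 1, 1 (BNIP3L at -0.64, limma adjusted p = 0.022).

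**Figure D5:**
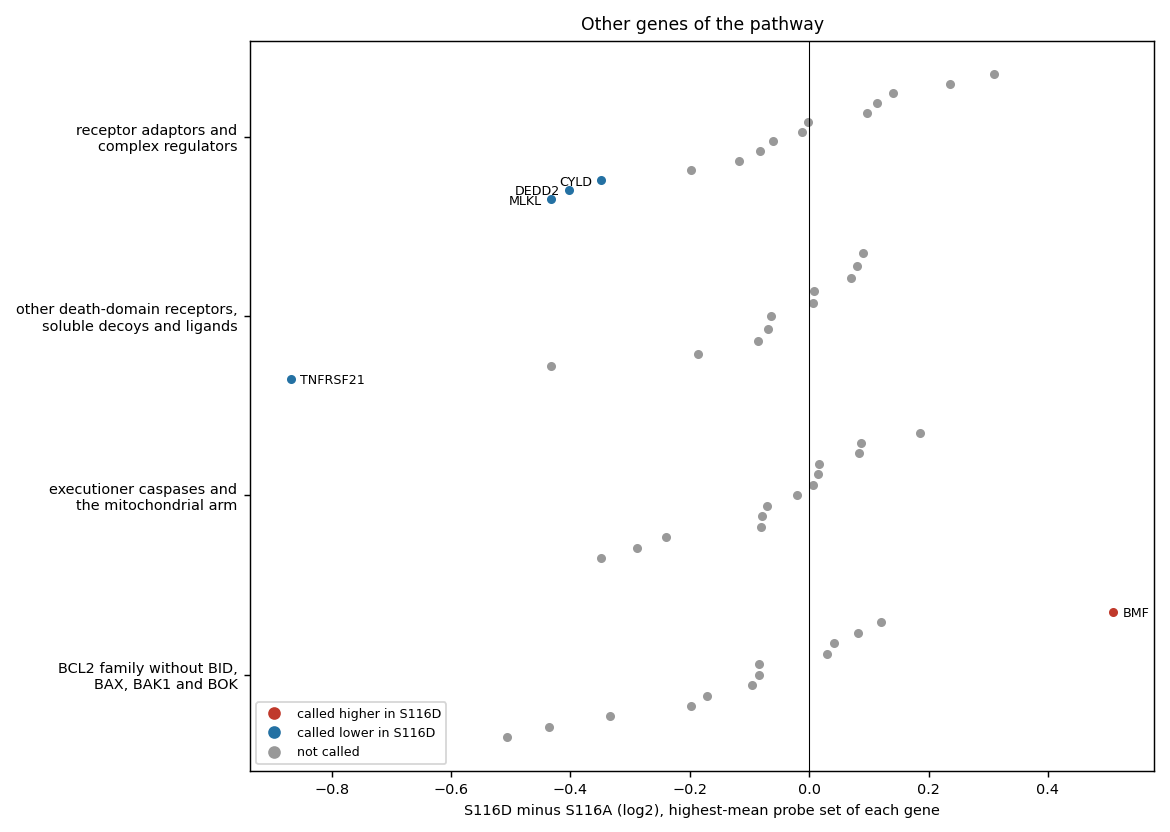
S116D minus S116A on the log2 scale for each measured gene of the 4 lists, 1 point per gene in order of its difference, in red where called higher, blue where called lower and grey where not called. The 5 called genes, MLKL, CYLD, DEDD2, TNFRSF21 and BMF, lie at -0.43, -0.35, -0.40, -0.87 and 0.51.

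Genes with the profile most like that of FAS, TNFRSF10D or BID were found by the root mean square difference over the 6 arrays, after each profile was centred on its own mean. For FAS these were EPHA2, GLG1 and ARHGEF7, at 0.059, 0.068 and 0.068 log2 units, where the median gene was at 0.44. For TNFRSF10D they were XYLT1, C4BPB and TNNC1, at 0.12, 0.14 and 0.16, where the median gene was at 0.68. For BID they were SPDL1, NRIP3 and CEP57, at 0.038, 0.041 and 0.044, where the median gene was at 0.28.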

How the data were processed

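Total RNA of 3 arrays per line was measured. The deposited table held log2 values for 54675 probe sets on each array, taken as log2 because the values lay between 4.34 and 15.33. Per the submitters' processing notes MAS5 and RMA were used, with roles and versions not given in the sources used here. Such summaries can compress the differences of dim probe sets. Control probe sets (62) were left out. Symbols came from GEO's platform annotation through RefSeq (GRCh38.p14), with 1 gene for 41091 probe sets, several for 1801 and none for 11721, and 41037 of the 41091 identifiers were found.

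Groups were taken from the titles. limma 3.58.1 in R 4.3.3 (lmFit, eBayes with trend, no covariate) was fitted to all 54613 probe sets with Benjamini-Hochberg adjustment at 0.05. SEs and 95% intervals are moderated. The fit was tested on simulated data. An exact permutation test of 3 against 3 cannot go below 0.1. The labels do not say that same-numbered arrays are pairs, so the numbers were not taken as pairs in the main fit. Deviations of same-numbered arrays correlated at 0.45, -0.040 and 0.44, which does not settle whether they were. The number of arrays limits the precision. Named were all member probe sets, PEA15, in each list the called genes of smallest adjusted p, at most 4 (in lists with no call, the 2 with the smallest unadjusted p), and the 3 most similar genes for each member called on its highest-mean probe set. LUM, the markers, and FADD, BIRC2, TNFRSF1A, CYCS, BCL2L11, PMAIP1 and BNIP3L are named beyond this, after their values were seen. The members and lists were chosen with earlier results of these data known.

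Alternatives were median centring, quantile normalization, eBayes without trend, testing only probe sets above the median signal, ordinary t statistics, array weights, the replicate block, 1 probe set per gene, leaving out each array, and, added after seeing the data, the sets of arrays as a block.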

Additional observations from a re-analysis of the deposited data

How the results depend on the processing

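All 7 calls were kept under median centring, quantile normalization, eBayes without trend, array weights and both blocks, and none under ordinary t statistics. Tested only among probe sets above the median signal, those calls that passed this limit were kept. No difference of a called probe set changed sign in any alternative. Of the 45 probe sets, the replicate block called 12 (6 higher), the block by set, added once the data had been seen, 14 (8 higher), and ordinary t statistics 0 (0 higher, 0 lower). Leaving out 1 array gave 4 to 7 calls, 1 to 3 higher and 3 to 4 lower. Of the pathway list genes, with 14, 11, 13 and 13 measured per list, 5 were called. The count was 12 with array weights, 13 with the replicate block, 12 with the sets as a block, 1 with ordinary t statistics and 2 to 7 without 1 array. Of all 19775 genes, 2166 were called in the main fit and 3899 with the sets as a block. Over all probe sets the share was 8.55% in the main fit, 11.7% with array weights and 13.4% with the replicate block. Across the array 4672 probe sets were called, against 7340 with the replicate block, 8099 with the sets as a block, 1026 with ordinary t statistics, 2407 of 19775 with 1 probe set per gene, and 2608 to 4674 without 1 array. Whether same-numbered samples were pairs is not given in the labels and was not settled here. Fewer samples or fewer tested probe sets are part of the leave-one-out and per-gene settings; for the other settings the cause was not tested. Dim probe sets, without detection calls, limit what can be said of TNFSF10 and TNFRSF10C.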
